A study of Homo sapiens with 4 samples.

Results

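Small nucleolar and small Cajal body RNAs (snoRNAs and scaRNAs) were examined in a CNOT4 knockdown experiment in HEK293 cells. They were chosen by name (SNORA, SNORD or SCARNA followed by a digit) and by a mean of at least 1 TPM over the 4 libraries, so their abundance is a description and was not tested. Of 262 such features among the 20457 listed, 214 were members: 74 of 99 SNORA (box H/ACA), 125 of 139 SNORD (box C/D) and 15 of 24 SCARNA. TPM divides reads by feature length and scales each library to a sum of 1000000. HEK293 is an established line from human embryonic kidney, labelled wild type. The cells behind 2 libraries received a negative control siRNA (siControl) and those behind the other 2 an siRNA against CNOT4 (siCNOT4), at 10 nM for 72 h in both groups. CNOT4 is a RING ubiquitin ligase and a partner of CCR4-NOT, the complex that shortens mRNA tails, and the stated question was its part in how codon usage affects expression. RNA was poly(A)-selected before stranded library preparation. The labels do not say whether the 2 libraries of a group came from separate cultures, so the p-values measure the spread between these libraries, which may be technical.

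Small nucleolar RNAs guide chemical modification of other RNAs by base pairing. Box C/D snoRNAs direct ribose methylation of ribosomal RNA and are named for their C and D box sequences near the ends; box H/ACA snoRNAs direct pseudouridylation and carry an ACA near the 3′ end. Small Cajal body RNAs (scaRNAs) guide the same modifications on spliceosomal RNAs. Most human members lie in introns of host genes and are released by splicing, debranching and exonuclease trimming. Mature snoRNAs carry no poly(A) tail. In a poly(A)-selected library, the mature RNA, an unspliced host transcript and a retained-intron transcript can each give reads on the same bases, and in these tables they cannot be told apart.

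Sequences of the members the results turn on are shown first, read from GENCODE 29 transcripts (GRCh38), 5′ to 3′. The first 3 are the most abundant members; SNORD63 and SNORD94 were higher in siCNOT4. Capitals mark TGATG, the core of the C box, where it lies in the first 25 bases, and CTGA, the D box, in the last 25.
SNORD58B: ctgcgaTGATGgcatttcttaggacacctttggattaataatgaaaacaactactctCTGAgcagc
SNORD49B: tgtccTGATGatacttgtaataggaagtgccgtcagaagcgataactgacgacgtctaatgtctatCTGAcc
SNORD86: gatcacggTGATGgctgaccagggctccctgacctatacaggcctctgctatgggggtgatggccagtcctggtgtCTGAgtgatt
SNORD63: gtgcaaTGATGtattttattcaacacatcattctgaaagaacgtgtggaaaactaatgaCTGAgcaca
SNORD94: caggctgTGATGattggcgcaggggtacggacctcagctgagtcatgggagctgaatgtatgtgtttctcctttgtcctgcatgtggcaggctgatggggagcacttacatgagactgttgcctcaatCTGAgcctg
The box H/ACA examples are SNORA67, the most abundant of its class, SNORA14B and SNORA12, which were higher in siCNOT4, and SNORA70. Capitals mark the ACA that ends 3 bases before the 3′ end.
SNORA67: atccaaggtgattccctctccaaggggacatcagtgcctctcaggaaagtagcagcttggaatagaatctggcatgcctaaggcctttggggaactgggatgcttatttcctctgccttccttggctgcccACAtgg
SNORA14B: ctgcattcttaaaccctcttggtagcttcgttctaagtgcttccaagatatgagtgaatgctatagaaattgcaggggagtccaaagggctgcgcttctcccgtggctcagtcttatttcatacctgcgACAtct
SNORA12: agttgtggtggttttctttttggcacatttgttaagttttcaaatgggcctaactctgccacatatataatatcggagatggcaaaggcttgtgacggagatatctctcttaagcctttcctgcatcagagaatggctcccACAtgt
SNORA70: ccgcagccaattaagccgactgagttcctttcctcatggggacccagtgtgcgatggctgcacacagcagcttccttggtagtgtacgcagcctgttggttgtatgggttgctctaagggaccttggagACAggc
The most abundant scaRNA, SCARNA12, is shown because it carries the C and D box letters in place of the terminal ACA.
SCARNA12: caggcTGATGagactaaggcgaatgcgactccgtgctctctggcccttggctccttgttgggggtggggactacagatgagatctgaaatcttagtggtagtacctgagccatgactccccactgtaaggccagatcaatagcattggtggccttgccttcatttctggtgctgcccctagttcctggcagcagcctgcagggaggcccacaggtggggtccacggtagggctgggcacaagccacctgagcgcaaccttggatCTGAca

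In GRCh38, SNORD58B lies at chr18:49491664-49491729 (minus strand) in an exon of RPL17, SNORD49B at chr17:16439505-16439576 (plus strand) over 68.1% of its length in an exon of LRRC75A-AS1 (listed as C17orf76-AS1), and SNORD86 at chr20:2656097-2656182 (plus strand) in an intron of NOP56. SNORD63 lies at chr5:138561043-138561110 (minus strand) in an intron of HSPA9 and SNORD94 at chr2:86135870-86136006 (plus strand) in an intron of PTCD3. SNORA67 lies at chr17:7577955-7578091 (plus strand) in an intron of EIF4A1, SNORA14B at chr1:235127803-235127937 (minus strand) in an intron of TOMM20, SNORA12 at chr10:100237156-100237302 (minus strand) in an intron of CWF19L1 and SNORA70 at chrX:154400281-154400415 (plus strand) in an intron of RPL10. SCARNA12 lies at chr12:6967337-6967606 (minus strand) in an intron of PHB2. The files were made on hg19, and these positions belong to the printed sequences alone.

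The box letters matched the class names. GENCODE 29 held 191 of the 214 members, with 108 SNORD, 71 SNORA and 12 SCARNA. Among the SNORD members, 98 of 108 (90.7%) had TGATG in the first 25 bases, against 0 of 71 SNORA and 52.4% of all 191; the longer TGATGA was in 66. CTGA was found in the last 25 bases of 107 SNORD (99.1%), 8 SNORA (11.3%) and 62.3% of all. ACA at 3 bases from the 3′ end was found in 51 of 71 SNORA (71.8%), 3 SNORD (2.78%), 8 of 12 SCARNA and 32.5% of all. Motifs were read on the transcript strand only, and the CTGA and ACA windows can overlap. The match describes letters and no activity.

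CNOT4 itself was at 6.43 and 4.73 TPM in siControl and at 3.38 and 3.81 TPM in siCNOT4, a log2 fold change of -0.51 (limma adjusted p = 0.184); after median-ratio scaling and quantile normalization it was -0.85 and -1.15 (limma adjusted p = 0.0406 and 0.0252). Of 6 HEK293 genes, 5 passed 1 TPM (NEFL at 307 to 384 TPM, KRT8 at 303 to 360 TPM; NEFM did not), and VIM was lower in siCNOT4 (log2 fold change -1.09). Of 5 genes of other cells, PTPRC, ALB and PECAM1 were at or under 0.255 TPM, and COL1A1 and DES were higher in siCNOT4 at up to 6.60 and 3.54 TPM, and their part in any result was not tested. siControl replicate 2 stood apart over 9848 features above 5 TPM in every library. Its median log2 ratio to the mean of the libraries was -0.41, against -0.01 in siControl replicate 1, 0.19 and 0.24 in siCNOT4. TPM sums to the same total in every library, so this is a difference in composition and not in total level. The median log2 fold change of all 14208 tested features was 0.50, so changes are given beside that shift.

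The depth behind a member was small. TPM values of short features fell on whole multiples of a step, and 1 read on 100 nt was worth 0.772 and 0.680 TPM in siControl and 0.810 and 0.820 TPM in siCNOT4. Of 666 values under 60 reads, 612 (91.9%) were whole within 0.05 reads. On this scale the median member had 10.8 reads per library, 101 of 214 members had a mean under 10 reads and 6 had 100 or more. These read numbers are estimates from RefSeq lengths, and intervals from them cover counting error only, since no molecular identifiers tell copies of a molecule apart. Replicates of the members differed more than those of all tested features together. The SD of the log2 difference between replicates was 0.86 in siControl and 0.69 in siCNOT4, against 0.48 and 0.20 over all tested features. This was not particular to the members. The median absolute log2 difference between replicates was 0.57 in siControl and 0.43 in siCNOT4 for them. For 193 microRNA locus features it was 0.80 and 0.45, and over all tested features 0.43 and 0.09.

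Box C/D features held most of the signal. The summed level of the 125 SNORD members was 7200 and 5862 TPM in siControl and 6047 and 6231 TPM in siCNOT4. The 74 SNORA members summed to 706 and 637 TPM in siControl and to 664 and 748 TPM in siCNOT4, and the 15 SCARNA members to 60.6 and 49.7 TPM and to 71.9 and 84.9 TPM. The SNORD and SNORA sums overlapped between the groups, and both SCARNA sums in siCNOT4 were above both in siControl. Of all tested features, 66.4% were separated in that direction too. The sums were not rescaled for the lower median ratio of siControl replicate 2. SNORA amounted to 9.80% and 10.9% of the SNORD sum in siControl and to 11.0% and 12.003% in siCNOT4. All members together made up 0.655% to 0.797% of the TPM of a library. The members of the 2 main classes differed in length, with a median of 75 nt for SNORD and 134 nt for SNORA and SCARNA, and a short feature gets more TPM per read. Median mean TPM was 10.8 for SNORD, 4.96 for SNORA and 2.70 for SCARNA, while the median of estimated reads was 12.2, 8.75 and 11.

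A few features dominated the box C/D sum. SNORD58B, SNORD49B and SNORD86 made up 52.9% to 57.7% of the TPM of all members in each library. SNORD58B was at 2535 and 2568 TPM in siControl and at 2713 and 2391 TPM in siCNOT4, with overlapping groups and a log2 fold change of 0.00 ± 0.12 (SE). Its whole length lies in an exon of RPL17, which encodes a ribosomal protein, and its TPM was 87.9% and 95.8% of that of RPL17 in siControl and 115% and 111% in siCNOT4. SNORD49B was at 1291 and 902 TPM in siControl and at 753 and 905 TPM in siCNOT4, again with overlapping groups (log2 fold change -0.39 ± 0.20). SNORD86 was at 730 and 306 TPM in siControl and at 382 and 440 TPM in siCNOT4 (log2 fold change -0.21 ± 0.38), so its siControl replicates lay farther apart than the groups. NOP56, its host and a core box C/D protein, was at 507 and 325 TPM and at 381 and 417 TPM, and exons of other annotated NOP56 transcripts cover SNORD86 in full. Neither feature passed the test (limma adjusted p = 0.185 and 0.689).

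**Figure D1:**
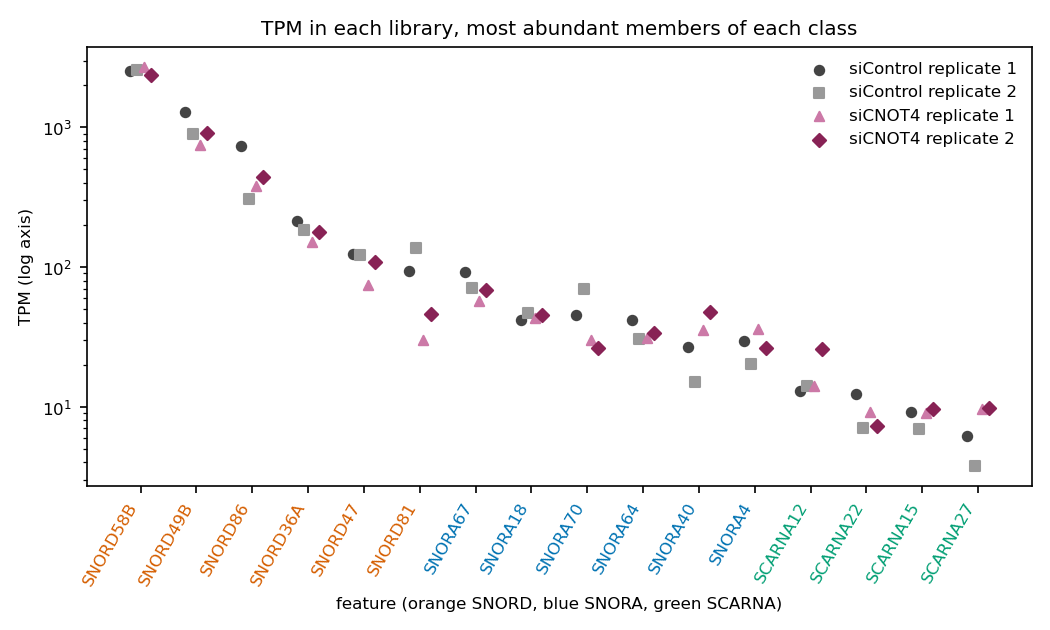
TPM on a log axis in each of the 4 libraries for the 6 most abundant SNORD, 6 SNORA and 4 SCARNA members, 1 point per library. SNORD58B is between 2391 and 2713 TPM in every library, whereas SNORD81 is at 93.3 and 138 TPM in siControl and 30.2 and 45.8 TPM in siCNOT4.

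Of the other abundant members in the plot of TPM by library, SNORD81 alone passed the test. SNORD36A, in RPL7A, was at 214 and 184 TPM in siControl and at 151 and 179 TPM in siCNOT4 (log2 fold change -0.27 ± 0.17, limma adjusted p = 0.241). SNORA67 was at 92.4 and 70.5 TPM and at 56.8 and 68.2 TPM (-0.37 ± 0.21, limma adjusted p = 0.218). SNORA70 was at 45.2 and 69.99 TPM and at 30.01 and 26.1 TPM, with both siCNOT4 libraries lower, and missed the threshold (-0.98 ± 0.27, limma adjusted p = 0.0583). SNORA18 and SNORA64 had overlapping groups, at 41.5 and 46.9 against 43.0 and 45.4 TPM, and at 42.0 and 30.4 against 30.8 and 33.7 TPM. SNORA4, in the translation factor gene EIF4A2, ranged from 20.3 to 36.1 TPM with overlapping groups.

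Over all members of a class, the box H/ACA and box C/D medians lay close together and below that of all features, but not at every level of abundance. The median log2 fold change was 0.19 over SNORA, 0.16 over SNORD and 0.48 over SCARNA, against 0.50 over all tested features and 0.52 over 193 microRNA locus features. The difference between the classes was not tested, since members of a class are not replicates. Positive values were seen for 48 of 74 SNORA, 77 of 125 SNORD and 13 of 15 SCARNA (64.5% of all members), against 81.2% of all tested features. Dividing each library by its median ratio turned the SNORA and SNORD medians to -0.15 and -0.21 and left SCARNA at 0.16, and quantile normalization gave -0.40, -0.31 and -0.09. The medians over all tested features were 0.12 and 0.02 after these scalings. The sign of a class median thus depended on the scaling. Relative to the median of all features, SNORA lay at -0.31 without rescaling, -0.27 after median-ratio scaling and -0.42 after quantile normalization. SNORD lay at -0.34, -0.33 and -0.33, and SCARNA at -0.02, 0.04 and -0.11. Abundance differs between the classes: among features of 20 TPM or more the median was -0.07 for 8 SNORA and -0.01 for 42 SNORD, against 0.40 for 6919 other features. From 5 to under 20 TPM it was 0.15 for 29 SNORA, 0.29 for 49 SNORD and 0.62 for the other features. From 2 to under 5 TPM the classes lay apart, at -0.11 for 20 SNORA and 0.76 for 20 SNORD against 0.62, so that SNORD was above the other features there. From 1 to under 2 TPM it was 0.37 for 17 SNORA, 0.46 for 14 SNORD and 0.60 for the other features.

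**Figure D2:**
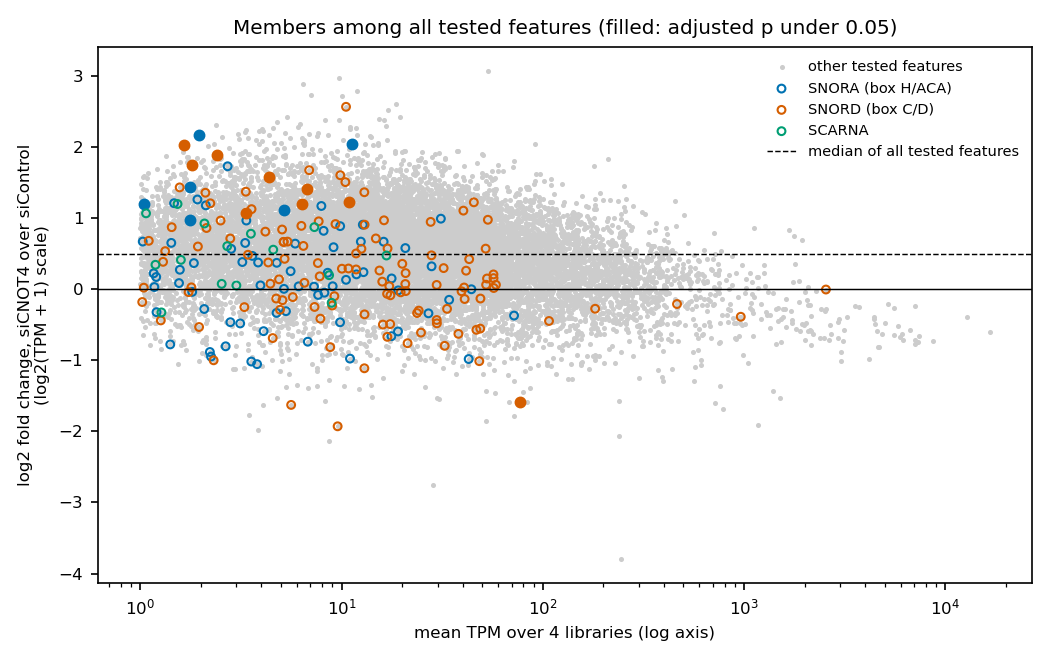
Mean TPM over the 4 libraries (log axis) against the log2 fold change between siCNOT4 and siControl (log2(TPM + 1) scale), for 14208 tested features in grey and members in colour, filled where the limma adjusted p was under 0.05. The dashed line is the median of all features, 0.50, and the called members apart from SNORD81 lie at low TPM.

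Of the 214 members, 14 were called higher and 1 lower in siCNOT4 (limma on log2(TPM + 1), Benjamini-Hochberg adjusted p under 0.05 over all features). That is 7.01% of the members, where 12.6% of all tested features were called, 11.3% higher and 1.30% lower. By class, 6 of 74 SNORA were higher and 0 lower, 8 of 125 SNORD were higher and 1 lower, and 0 of 15 SCARNA were called. At an unadjusted p under 0.05 there were 21 SNORA, 27 SNORD and 3 SCARNA, 23.8% of the members, where 42.0% of all tested features were. Both siCNOT4 libraries lay above both siControl libraries for 68 members (31.8%, background 66.4%) and below them for 31 (14.5%, background 10.6%). After median-ratio scaling 3 SNORA and 5 SNORD were higher and 2 SNORA and 7 SNORD lower, beside backgrounds of 6.95% and 3.82%. After quantile normalization 2 SNORA and 2 SNORD were higher, and 9 SNORA, 16 SNORD and 1 SCARNA lower, beside backgrounds of 7.11% and 8.23%. The split of the calls by direction therefore followed the scaling, for the members as for all features.

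Most calls rested on few reads. Of the 15 called members, 10 had a mean under 10 estimated reads per library, 7 averaged under 1 TPM in siControl, and 6 had at most 1 read in each siControl library. A member that is near 0 in siControl and passed the limit of 1 TPM through siCNOT4 had to differ, so these are listed without support from their number. Requiring a mean of at least 10 reads left 1 SNORA and 4 SNORD calls. SNORA42 (0 and 1 reads against 3 and 3) was called at a mean of 1.04 TPM, and SNORD91A and SNORA34, at 1.02 and 1.03 TPM, were the members nearest the limit. Just outside it were SCARNA7, SNORA38B and SNORA57, at 0.946, 0.926 and 0.880 TPM.

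SNORA14B was the called box H/ACA member with the most reads. It was at 4.001 and 3.52 TPM in siControl and at 18.6 and 18.8 TPM in siCNOT4, from 7 and 7 against 31 and 31 estimated reads. The groups did not overlap, and the log2 fold change was 2.05 ± 0.27 (SE; limma adjusted p = 0.0228) on the log2(TPM + 1) scale. The ratio of the estimated reads per unit of depth, with no pseudocount, was 4.99, with a counting interval at 95% of 2.76 to 9.66. TOMM20, the host and a mitochondrial import receptor, was at 667 and 537 TPM in siControl and at 515 and 475 TPM in siCNOT4 (log2 fold change -0.27, limma adjusted p = 0.209). The call was lost without siCNOT4 replicate 1 or replicate 2 (limma adjusted p = 0.101 and 0.108). SNORA77, in the calcium pump gene ATP2B4, was listed at 0 in both siControl libraries and at 1.94 and 5.90 TPM in siCNOT4, from 3 and 9 reads (limma adjusted p = 0.0307). ATP2B4 was itself called higher (1.71, limma adjusted p = 0.0459).

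Among the box C/D members, SNORD84 and SNORD81 had the most reads behind their calls. SNORD84, in the RNA helicase gene DDX39B, was at 2.69 and 0.872 TPM in siControl and at 5.64 and 8.26 TPM in siCNOT4 (log2 fold change 1.58 ± 0.38, limma adjusted p = 0.0485). Its values came out whole, as 19 and 7 against 38 and 55 reads, only at 7 times its RefSeq length. The call was lost without siCNOT4 replicate 2 (limma adjusted p = 0.142) and after median-ratio scaling. SNORD71, in the clathrin adaptor gene AP1G1, was listed at 0 in both siControl libraries and at 4.71 and 1.91 TPM in siCNOT4, from 5 and 2 reads, and its host was called higher too (1.26, limma adjusted p = 0.0420). SNORD37, in the elongation factor gene EEF2, had 0 and 1 reads in siControl and 4 and 3 in siCNOT4. SNORD67, in CKAP5, had 0 and 1 against 5 and 4. Both sets of groups were separate, yet the counting interval of the SNORD37 ratio began at 1.01.

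The other called members, named here after their values were seen, were SNORA12, SNORA55, SNORA26, SNORA42, SNORD63, SNORD94, SNORD125 and SNORD97. SNORA12 had 1 and 1 reads in siControl and 5 and 6 in siCNOT4 (log2 fold change 1.44). SNORD125, in the adaptor gene AP1B1, had 8 and 8 against 16 and 21 (1.24), SNORD94 had 7 and 6 against 14 and 17 (1.20), and SNORA55, in the poly(A)-binding protein gene PABPC4, had 5 and 6 against 13 and 12 (1.11). These 3 had counting intervals from 1.22 to 1.42 at their lower ends. Intervals of the others named in this paragraph are not given. SCARNA1, no member, had the same summed reads as the called SNORA42 (1 against 6), and its interval began at 0.821, below 1. SNORD63 had 3 and 3 against 8 and 9 (1.41), SNORD97 had 4 and 3 against 9 and 8 (1.08), and SNORA26 had 1 and 2 against 4 and 4 (0.98). No called member other than SNORD81 was above 50 reads in any siControl library.

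**Figure D3:**
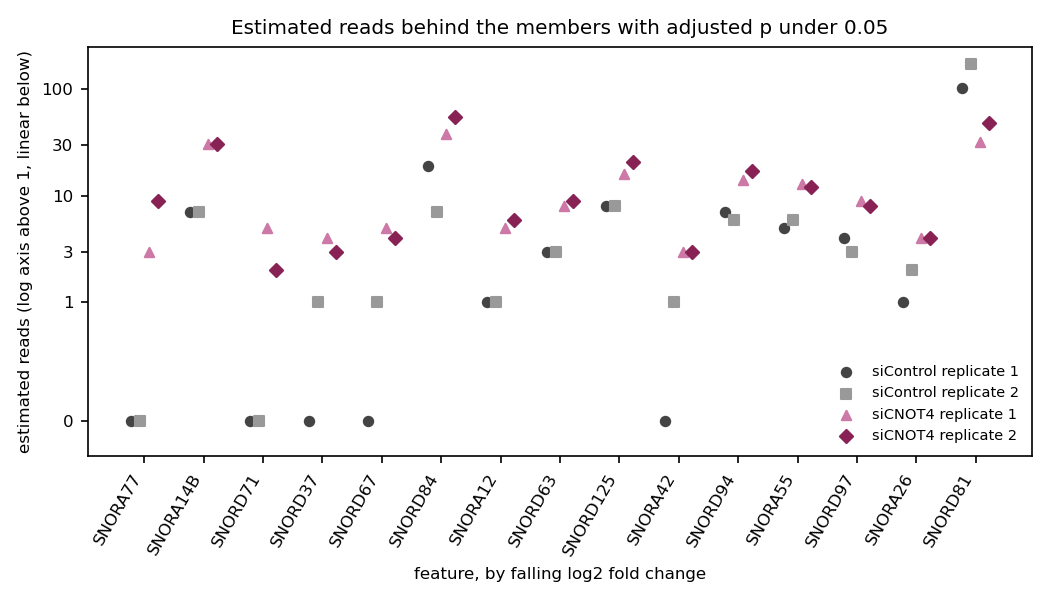
Estimated reads in each library for the 15 called members, ordered by falling log2 fold change, on an axis that is linear below 1 and logarithmic above. SNORA77 and SNORD71 have 0 reads in both siControl libraries, and SNORD81 is alone in having more reads in siControl (104 and 174) than in siCNOT4 (32 and 48).

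Some members with larger fold changes missed the threshold. SNORD98 had the largest positive value (2.57 ± 0.94, limma adjusted p = 0.0963) from 7 and 0 reads in siControl and 16 and 12 in siCNOT4. SNORD69 had the largest negative value (-1.93 ± 0.50, limma adjusted p = 0.0532) from 23 and 10 reads in siControl and 2 and 4 in siCNOT4. SNORD69 and SNORD19 share the host GNL3, a nucleolar GTPase gene, and SNORD19 was at 6 and 4 against 20 and 10 reads (1.51, limma adjusted p = 0.0584). These members were named after their values were seen.

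No scaRNA passed the test. SCARNA12 was at 12.9 and 14.1 TPM in siControl and at 14.1 and 25.8 TPM in siCNOT4 (log2 fold change 0.48, limma adjusted p = 0.306). SCARNA27 was at 6.12 and 3.78 TPM and at 9.65 and 9.76 TPM, with both siCNOT4 libraries higher (0.88, limma adjusted p = 0.0876). SCARNA22 and SCARNA15 had overlapping groups. SCARNA17, which was listed among RNAs with a promoter of their own, had 2.75 and 3.07 TPM in siControl and 3.66 and 2.53 TPM in siCNOT4. SCARNA2, also on that list, averaged 0.497 TPM and was no member.

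Host genes gave a second reading of the same loci. A host with a listed value was found for 202 members in 106 genes. The median log2 fold change of the host, counted once for each member, was -0.18 for SNORA, -0.39 for SNORD and 0.56 for SCARNA. The member's log2 fold change was above that of its host for 49 of 68 SNORA, 101 of 121 SNORD and 7 of 13 SCARNA, 157 of 202 in all, and the median difference was 0.39, 0.62 and 0.15. No share over other features was computed beside these counts. All tested features had a median of 0.50, above the host medians of SNORA and SNORD. A feature at that median would lie above most of those hosts too. Median-ratio scaling left 161 of 202 above the host, whereas quantile normalization left 104. With pseudocounts of 0.1 and 5 the number above the host was 159 and 147 of 202, and among members and hosts with a mean of at least 5 TPM it was 107 of 129 (82.9%, against 77.7% in all). In 23 hosts that were called lower, 56 of 60 members lay above the host, and 1 was called lower itself. These hosts were picked for low values in the same data. That count was therefore largely set by the choice and is no result about the members. Across the 202 members, which share hosts and libraries, Spearman's rho between member and host was 0.36, 0.49 over SNORA and 0.29 over SNORD.

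**Figure D4:**
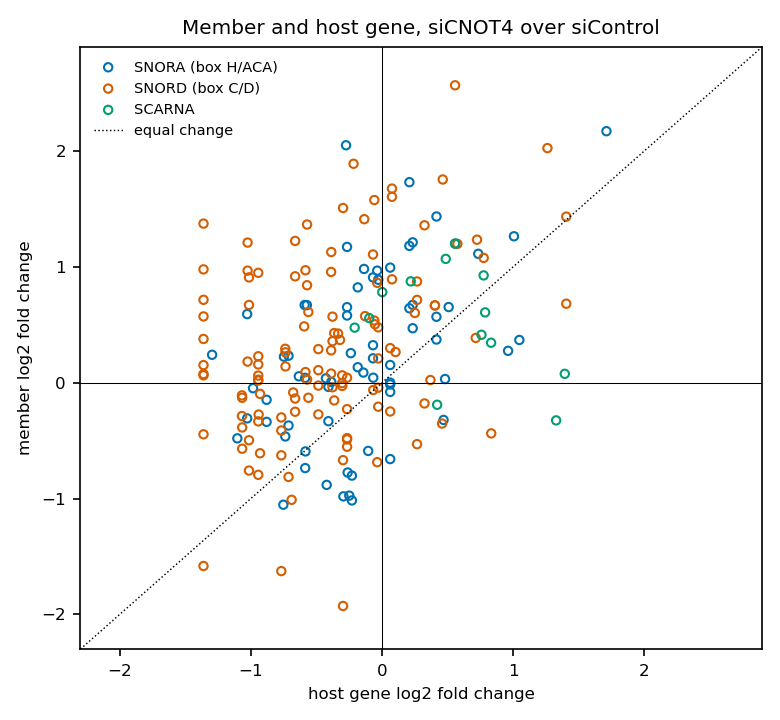
Log2 fold change of each of 202 members against that of its host gene, siCNOT4 over siControl, with equal change as the dotted line. Of these points, 157 lie above the line, and those at the left edge near -1.36 share the host GAS5.

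Members were small next to their hosts. The median member had 2.34% of the TPM of its host. The 77 members in introns that no annotated transcript covers with an exon had 1.88%, the 111 in introns that are exonic in another annotated transcript had 3.34%, and the 12 in exons had 18.0%. Calls numbered 10 (13.0%), 5 (4.50%) and 0 in these groups, beside the 12.6% of all tested features. Their median log2 fold changes were 0.47, 0.09 and 0.29, beside host medians of 0.21, -0.49 and -0.36. The 77 members also had the lowest median level, 2.72 TPM against 15.9 and 10.4, and the part of abundance in these differences was not tested.

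GAS5, a noncoding host RNA that carries box C/D snoRNAs in its introns, held 10 box C/D members. GAS5 was at 974 and 1211 TPM in siControl and at 458 and 389 TPM in siCNOT4 (log2 fold change -1.36 ± 0.16, limma adjusted p = 0.0227). SNORD81 was lower as well, at 93.3 and 138 TPM in siControl and 30.2 and 45.8 TPM in siCNOT4 (-1.58 ± 0.28, limma adjusted p = 0.0316). The groups of SNORD81 did not overlap, and the call was lost without siCNOT4 replicate 1 (-1.29). It was also lost with no limit on mean TPM, with a limit of 5 TPM, and when limma ran without the variance trend. The other 9 members lay above GAS5 and were not called. SNORD47 was at 124 and 122 TPM and at 74.7 and 109 TPM, with both siCNOT4 libraries lower (-0.45). SNORD80 was at 55.4 and 46.9 TPM and at 53.6 and 53.1 TPM, within the siControl range, and SNORD78 at 24.3 and 16.4 TPM and at 19.5 and 22.8 TPM. SNORD44 was at 54.4 and 21.2 TPM and at 58.4 and 79.3 TPM, with both siCNOT4 libraries higher (0.98 ± 0.43, limma adjusted p = 0.137). SNORD76 and SNORD79 overlapped between groups, since siControl replicate 2 was low in both (29.4 and 25.2 TPM) and siControl replicate 1 high (76.2 and 61.9 TPM). SNORD77, SNORD74 and SNORD75 ranged from 0 to 18.6 TPM. The median of the 10 members was 0.27.

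SNHG1, another noncoding host, was at 203 and 236 TPM in siControl and at 112 and 115 TPM in siCNOT4 (-0.94 ± 0.15, limma adjusted p = 0.0272). Its call was lost without siCNOT4 replicate 1 or 2 (limma adjusted p = 0.173 and 0.155). All of its 8 box C/D members lay above it and 0 were called (lowest -0.79, highest 0.95, median 0.04). SNORD25, which lies in an exon, was at 58.7 and 26.4 TPM and at 19.4 and 25.7 TPM, and SNORD31 at 24.97 and 28.0 TPM and at 17.9 and 24.1 TPM, both with siCNOT4 lower. SNORD22 was at 53.3 and 53.95 TPM and at 54.7 and 65.7 TPM, and SNORD29 and SNORD30 overlapped at 48.6 to 66.9 and 26.2 to 32.0 TPM. SNORD26, SNORD27 and SNORD28 had uneven siControl replicates, of 62.8 and 22.7, 41.8 and 5.67, and 23.7 and 12.7 TPM.

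The calls of GAS5 and SNHG1 were kept after both other scalings. TAF1D, which encodes a factor for ribosomal RNA gene transcription, carried 6 SNORA and 2 SNORD and was not called, at 63.6 and 55.1 TPM in siControl and at 63.9 and 59.9 TPM in siCNOT4 (0.06, limma adjusted p = 0.801; -0.36 after median-ratio scaling). Its members scattered around it, from -0.66 for SNORA25 to 0.99 for SNORA40, with a median of -0.01, and 3 of 8 lay above the host. SNORA40 was at 26.7 and 15.0 TPM and at 35.1 and 47.8 TPM, and SNORA25 at 19.9 and 23.7 TPM and at 11.05 and 16.2 TPM; the groups of each were separate, in opposite directions, and neither was called (limma adjusted p = 0.0812 and 0.135). The members SNORA1, SNORA8, SNORA18, SNORA32, SNORD5 and SNORD6 overlapped between the groups.

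**Figure D5:**
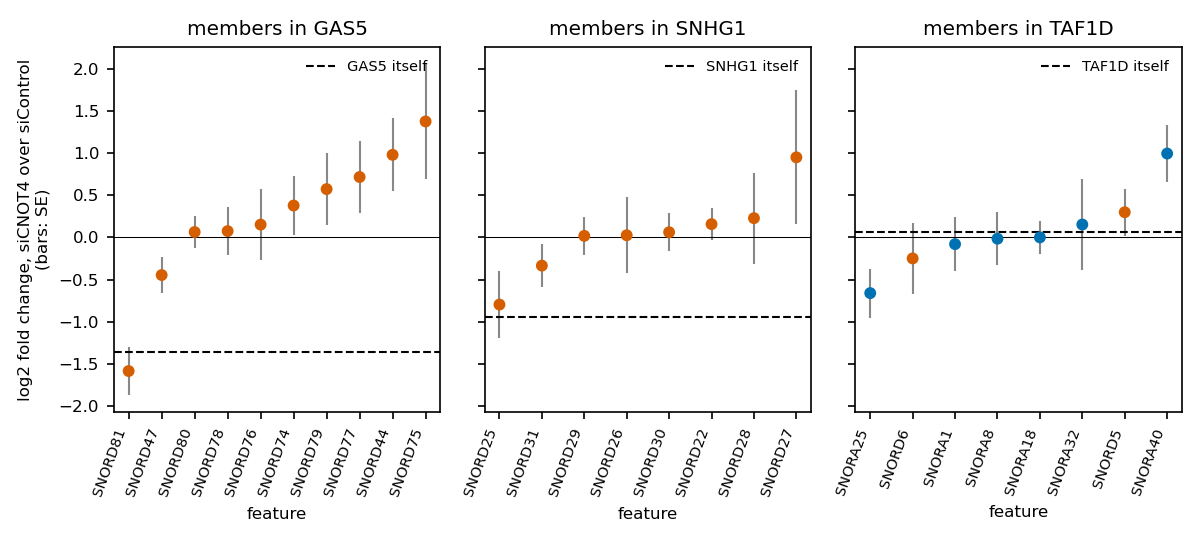
Log2 fold change of each member (points, bars are SE) in GAS5, SNHG1 and TAF1D, with the host as a dashed line, orange for SNORD and blue for SNORA. In GAS5 only SNORD81 is below the line at -1.36, in SNHG1 all 8 members are above -0.94, and in TAF1D they scatter around 0.06.

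Genes for proteins that act with these RNAs are given beside all tested features. Of those features, 12.6% were called, 11.3% higher and 1.30% lower, and 42.0% had an unadjusted limma p under 0.05. Counts of either kind below are not results about these lists. Of the 6 genes for box H/ACA proteins, 0 were called and 4 had an unadjusted limma p under 0.05 (median -0.03). DKC1, the pseudouridine synthase, was at 223 and 206 TPM in siControl and at 160 and 163 TPM in siCNOT4 (-0.41, limma adjusted p = 0.0868), and was called lower after either other scaling. Of the 4 box C/D core genes, 2 were lower: FBL, the methyltransferase, fell by 0.73 on the log2 scale, from 1603 and 2215 to 1142 and 1123 TPM (limma adjusted p = 0.0475), and NHP2L1 by 0.55, from 304 and 309 to 201 and 217 TPM (limma adjusted p = 0.0494). NOP56 and NOP58 were not called, and the FBL call was lost after median-ratio scaling, where the log2 fold change was -1.16 (limma adjusted p = 0.0819), and after quantile normalization, where it was -0.42 (limma adjusted p = 0.0565). Both calls were also lost without siCNOT4 replicate 1 or 2. Of 7 box C/D assembly genes, limma called 0, with 2 at an unadjusted p under 0.05. COIL, which encodes the Cajal body scaffold coilin, was at 54.95 and 41.3 TPM in siControl and 88.2 and 87.3 TPM in siCNOT4 (0.87, limma adjusted p = 0.0474), was not called after median-ratio scaling or without siCNOT4 replicate 1 or 2, and WRAP53, which brings scaRNAs to that body, was not called. Of 12 genes listed for the processing of snoRNA ends and excised introns, limma called 0 and 8 had an unadjusted p under 0.05. Their median was 0.85 beside 0.50 for all features. Among 15 other short structured RNAs, 10 were listed, 6 tested and 0 called by limma (2 at an unadjusted p under 0.05); RMRP was at 8.64 and 9.39 TPM and at 7.26 and 14.7 TPM, with overlapping groups.

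SNORD62A and SNORD62B had identical values in all 4 libraries (6.73 and 1.58 TPM in siControl, 7.07 and 5.24 TPM in siCNOT4). Their 86-base sequences are identical, and both lie in introns of PRRC2B. Reads of the 2 copies cannot be told apart, so they hold 1 measurement. All counts given here nevertheless include them as 2 members.
SNORD62A: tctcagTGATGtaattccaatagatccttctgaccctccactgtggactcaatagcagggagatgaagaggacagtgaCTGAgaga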

How the data were processed

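RNA of 2 siControl and 2 siCNOT4 libraries was measured. The authors deposited 1 table of TPM per library, per the file headers; the submitters' processing notes name FastQC 0.11.2, STAR 2.5.3a, featureCounts and hg19, and how each was set is not given in the sources used here. TPM was transformed to log2(TPM + 1), which understates the change of low features, and the 14208 of 20457 features with a mean of at least 1 TPM were compared with limma 3.58.1 (R 4.3.3; lmFit, eBayes with trend, 2 against 2, no covariates). P-values were adjusted over all features by the Benjamini-Hochberg method, with 0.05 as the threshold. The test was checked on simulated data in which 200 of 14208 features were changed. It called 42 of them at an imposed log2 change of 1, 198 at 2 and 200 at 3. False calls among the other features numbered 1, 7 and 14. A change near 1 that was not called is therefore weak evidence of no change. Whether these numbers of true and false calls carry over to the measured libraries was not tested. Nor was it tested for the members alone. The SD of their log2 difference between replicates was 0.86 in siControl and 0.69 in siCNOT4. Over all tested features it was 0.48 and 0.20.

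Reads were estimated from the TPM steps and RefSeq lengths: 194 members were whole at the RefSeq length, 11 at another length within 20%, 5 at a multiple of it and 1 at none, while 3 were not checked. Read depth is otherwise unknown. Ratio intervals are exact binomial intervals at 95% on the siCNOT4 share of those reads, turned into ratios and scaled by depth. Reads were summed over the 2 libraries of each group, so the spread between libraries is not covered. Hosts are genes of GENCODE 29 that contain a member on its strand. For 23 members the span came from RefSeq, without strand. Named members were the most abundant (6 SNORA, 6 SNORD, 4 SCARNA), the 6 largest called changes each way, those with a promoter of their own, the members of the 3 hosts with most members, and those nearest the limit. Members and lists were chosen with earlier results of these data known.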

Additional observations from a re-analysis of the deposited data

How the results depend on the processing

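The number of calls depended strongly on the settings, and the cause was not tested. Against 1608 features higher and 184 lower, 6 SNORA, 9 SNORD and 0 SCARNA calls, a pseudocount of 0.1 gave 478 and 80 features with 3 SNORA and 3 SNORD; a pseudocount of 5 gave 2807 higher with 10 SNORA and 16 SNORD; no filter gave 0 of each by limma (6701 features and 32 members at an unadjusted p under 0.05); a mean of at least 5 TPM gave 109 and 38 with 1 SNORA and 0 SNORD; no variance trend gave 703 and 53 with 3 and 5. Median-ratio scaling gave 987 and 543, and quantile normalization 1010 and 1169 with 11 SNORA, 18 SNORD and 1 SCARNA. Members with at least 10 reads (chosen after seeing the data) gave 1 SNORA and 4 SNORD. Libraries of the same number share only that number (r = 0.17 for the deviations of same-numbered libraries, -0.06 over the members); with the replicate number as a block there were 3342 and 313 features, 22 SNORA, 31 SNORD and 3 SCARNA.

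Leaving out 1 library, with the lone library of its group assumed to vary like the other group, gave 413 to 10071 features higher and 37 to 1467 lower, 6 to 35 SNORA, 10 to 68 SNORD and 1 to 9 SCARNA calls. Of the 15 called members, 7 stayed called without siCNOT4 replicate 1 or 2, 9 after median-ratio scaling, 4 after quantile normalization, 6 at a pseudocount of 0.1, 8 with no variance trend, 1 at a mean of 5 TPM and 0 with no filter. All 15 stayed called at a pseudocount of 5, with the block, and without siControl replicate 1 or 2, in fits that called 26, 56, 112 and 82 members. Medians ranged from 0.056 to 0.39 (SNORA), -0.05 to 0.35 (SNORD) and 0.25 to 0.62 (SCARNA). The SCARNA median of 0.48 was 0.67 and 0.27 at pseudocounts of 0.1 and 5, 0.38 with no filter, 0.34 at a mean of 5 TPM or of 10 reads, 0.16 after median-ratio scaling and -0.090 after quantile normalization; the SNORA and SNORD medians became -0.15 and -0.21, and -0.40 and -0.31. Quantile normalization put 104 members above their host; leaving out a library gave 143 to 159. Without siControl replicate 2, SNORA32, SNORD26, SNORD27 and SNORD76 turned to -0.64, -0.69, -0.39 and -0.52, and without siControl replicate 1 they were 0.95, 0.74, 2.29 and 0.83. SNORD86 turned to 0.42 without siControl replicate 1 (-0.83 without replicate 2), and SNORD58B to 0.46 after quantile normalization.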
